A study of Danio rerio with 8 samples.

Results

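Transcripts of 10 transcription factors that mark amacrine, horizontal and ganglion cells, which are inner retinal neurons, were examined in rod (GFP+) and non-rod (GFP-) cells sorted from zebrafish retina. The factors were chosen by name: *pax6a*, *pax6b*, *tfap2a*, *tfap2b*, *prox1a*, *onecut1*, *lhx1a*, *atoh7*, *pou4f2* and *isl2b*. Of the 10, 5 are named in the table of 13325 genes that the authors deposited: *pax6a*, *pax6b*, *tfap2a*, *tfap2b* and *prox1a*. A further 4, *onecut1*, *lhx1a*, *atoh7* and *pou4f2*, were found among the 33737 counted gene IDs through a table of gene names. No ID was matched to *isl2b*, a LIM homeobox factor of zebrafish ganglion cells, and it was not analysed here.

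Amacrine and horizontal cells are the interneurons of the retina, whereas ganglion cells send its output to the brain. All arise from common progenitors, and each class is set up by a small number of DNA-binding proteins. Pax6 acts in the progenitors and stays on in adult amacrine and ganglion cells. The AP-2 factors are used by amacrine and horizontal cells in mouse, and Prox1, Onecut1 and Lhx1 by horizontal cells in mouse. Atoh7 is needed by progenitors to make ganglion cells in zebrafish and mouse, and Pou4f2 acts after it in mouse. Mature rods belong to the photoreceptor layer and are not among the classes that these factors are known to mark.

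The libraries came from 4 XOPS:eGFP transgenic fish, whose rods make eGFP from a rod opsin promoter of *Xenopus*, so that GFP- and GFP+ cells carried the same transgene. No other treatment was given. Adult fish were kept in the dark before both retinas were taken, digested with papain and trypsin and sorted, and 1 GFP+ and 1 GFP- library was made per fish, giving 8 libraries in 4 pairs. The GFP- cells were a mixture of all non-rod cells. The fish carry the labels 1, 2, 2_2 and 5_2, and are called fish 1 to 4 in that order. The paper states that sex was a variable in its design, but these labels do not give the sex of a fish.

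Counts on genes ranged from 1722055 to 2206479 in GFP+ libraries and from 1865121 to 2514874 in GFP- libraries. Levels are counts per 1e6 counts of the library (CPM), with the library size scaled by edgeR's TMM factors. A gene with 0 reads could hold up to 3 counts by sampling, equal to 0.933 to 3.11 CPM depending on the library. This limit covers only the counting error, as reads copied by PCR are not separate molecules. The paper also reports that the RNA was amplified when the libraries were made. The part of this in the reads of sparse genes was not tested. Mitochondrial genes took 12.4% to 39.3% of the counts in GFP+ libraries and 25.0% to 66.1% in GFP- libraries, and the GFP- libraries of fish 3 and 4 were the highest. The labelled cell types were checked against defining transcripts. All 13 rod transcripts passed an FDR under 0.01 with the higher level in GFP+ libraries, with rhodopsin, *rho*, at 15428 ± 4056 CPM against 2011 ± 1385 CPM (SD, n = 4 each). All 12 tested cone transcripts were lower. GFP- libraries were not free of rod transcripts, whose summed level was 2987 to 14816 CPM there and 38115 to 69814 CPM in GFP+ libraries. The GFP- sums of fish 3 and 4, 14816 and 12365 CPM, were above those of fish 1 and 2, 2987 and 4522 CPM.

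The comparison asked whether the transcripts of these factors differed between rods and the other retinal cells of the same fish. All 5 factors with enough reads to test had a lower fitted level in GFP+ libraries, with log2 fold changes between -1.48 and -0.71. Of all tested genes, 51% had a negative log2 fold change. Among the 5 factors, *tfap2a* and *pax6a* were lower at an FDR under 0.05. None of the 5 passed an FDR under 0.01, and none dropped out of GFP+ libraries as a group: mean GFP+ levels were 35.4% to 62.5% of the GFP- means. The other 4 factors with an ID had too few reads to test, with 18 reads or fewer each in all 8 libraries together.

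*pax6a* (ENSDARG00000045045, Zv9 chromosome 25 from 15289718 to 15409410, minus strand) encodes a paired-box and homeobox factor. In fish 1 to 4 its GFP+ level was 33.2, 17.1, 38.4 and 18.6 CPM, and its GFP- level was 40.1, 73.8, 56.0 and 68.8 CPM. Every GFP+ library lay below every GFP- library, although the fish 3 GFP+ and fish 1 GFP- libraries were close. The means were 26.8 ± 10.6 CPM and 59.7 ± 15.0 CPM (SD, n = 4 each), a log2 fold change of -1.19 (standard error, SE, 0.38, 95% interval -1.97 to -0.41, FDR = 0.0331 by edgeR's quasi-likelihood test). The difference was wide in fish 2 and 4, with log2 ratios of -2.06 and -1.84, and narrow in fish 1 and 3, with -0.26 and -0.53. Without fish 2 the FDR became 0.248, and without fish 4 it became 0.214.

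*pax6b* (ENSDARG00000045936, Zv9 chromosome 7 from 16636712 to 16662410, plus strand) is the second zebrafish copy of Pax6. Its GFP+ libraries had 32.9, 21.0, 12.8 and 14.5 CPM in fish 1 to 4, and its GFP- libraries 19.9, 45.1, 32.2 and 32.8 CPM. The populations overlapped, since fish 1 had the higher level in the GFP+ library, with 101 reads against 64. Mean levels were 20.3 ± 9.11 CPM and 32.5 ± 10.3 CPM (SD, n = 4 each). The log2 fold change of -0.71 (SE 0.44, 95% interval -1.61 to 0.20) did not pass the test (FDR = 0.331 by edgeR's quasi-likelihood test). Without fish 1 it was -1.21, with an FDR of 0.139. Reads that match both copies of Pax6 may be missing from the counts or assigned to the other copy. With the reads of *pax6a* and *pax6b* added together, an alternative chosen after seeing the data, the log2 fold change was -0.98 (SE 0.33, FDR = 0.0484 by edgeR's quasi-likelihood test).

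*tfap2a* (ENSDARG00000059279, Zv9 chromosome 24 from 8521274 to 8532116, minus strand) encodes AP-2 alpha, a factor of amacrine and horizontal cells in mouse. In fish 1 to 4 its level was 12.7, 20.1, 20.6 and 6.36 CPM on the GFP+ side and 70.6, 47.0, 12.4 and 38.6 CPM on the GFP- side. Fish 3 went the other way, with 29 GFP+ reads and 12 GFP- reads, and its GFP- level was the lowest of the 4. Mean levels were 14.9 ± 6.77 CPM against 42.2 ± 24.0 CPM (SD, n = 4 each). The log2 fold change was -1.48 (SE 0.49, 95% interval -2.50 to -0.46, FDR = 0.0439 by edgeR's quasi-likelihood test). Leaving out fish 3 gave a log2 fold change of -2.04 and an FDR of 0.00211. Leaving out fish 1, 2 or 4 gave an FDR of 0.345, 0.124 or 0.273. The GFP- library of fish 3 also had the largest mitochondrial share, 66.1%. Of the GFP- libraries it had the largest summed level of rod transcripts, 14816 CPM. The part of either in the reversed ratio was not tested.

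*tfap2b* (ENSDARG00000012667, Zv9 chromosome 20 from 48367977 to 48386887, minus strand) encodes the related AP-2 beta. Only 30 reads were counted in GFP+ and 57 in GFP- libraries, the fewest of the tested factors. Reads per library were 14, 13, 0 and 3 in the GFP+ and 33, 13, 3 and 8 in the GFP- libraries of fish 1 to 4. Fish 1, 3 and 4 had fewer reads in the GFP+ library, and fish 2 had equal reads in both. The log2 fold change of -1.29 had a SE of 0.96 and an interval from -3.27 to 0.69, so that a difference in either direction was not detectable at this depth (FDR = 0.431 by edgeR's quasi-likelihood test). Adding the reads of *tfap2a* and *tfap2b*, also chosen after seeing the data, gave a log2 fold change of -1.40 (SE 0.45, FDR = 0.0359 by edgeR's quasi-likelihood test). Most of the summed reads were those of *tfap2a*, whose own FDR rose above 0.05 without fish 1, 2 or 4, and the sum was not refitted without each fish.

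*prox1a* (ENSDARG00000055158, Zv9 chromosome 17 from 33028346 to 33071546, minus strand) encodes a prospero-related homeobox factor that horizontal cells need in mouse. Its GFP- libraries were the most even of any tested factor, at 39.8, 40.9, 46.7 and 47.6 CPM in fish 1 to 4, a coefficient of variation of 9.03%. The GFP+ libraries of fish 2 to 4 were also close, at 23.1, 22.0 and 23.6 CPM, whereas that of fish 1 was at 37.5 CPM. No GFP+ library reached the lowest GFP- library. Mean levels were 26.6 ± 7.31 CPM and 43.8 ± 3.95 CPM (SD, n = 4 each), and the log2 fold change was -0.74 (SE 0.36, 95% interval -1.48 to -0.00022). With an unadjusted p of 0.0499 and FDR = 0.189 by edgeR's quasi-likelihood test, the difference did not pass the test across all genes. Without fish 1 the log2 fold change was -0.98, again with an FDR above 0.05 (0.181).

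**Figure D1:**
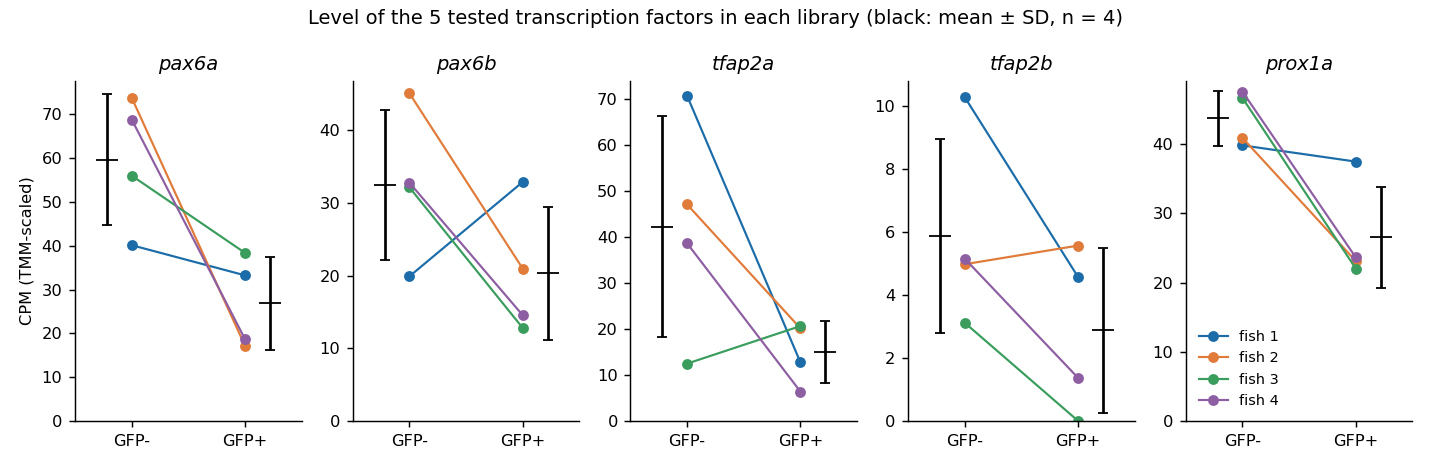
Level in CPM (vertical axes, linear and starting at 0, with a scale of their own for each gene) of *pax6a*, *pax6b*, *tfap2a*, *tfap2b* and *prox1a* in GFP- and GFP+ libraries, with 1 colour and line per fish and the mean ± SD (n = 4) in black. All 4 lines fall for *pax6a* and *prox1a*, whereas fish 1 rises for *pax6b*, fish 3 for *tfap2a* and, slightly, fish 2 for *tfap2b*.

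Read against all genes, these counts were as follows. By edgeR's quasi-likelihood test, 0 of the 5 tested factors were lower at an FDR under 0.01, compared with 5.68% of the 12564 tested genes. At an FDR under 0.05, 2 were lower (*pax6a* and *tfap2a*), compared with 9.57% of all genes, and 0 were higher, compared with 5.6%. At an unadjusted p under 0.05, 3 were lower, compared with 15.8%, the third being *prox1a*. Of the 16 alternatives, only leaving out fish 1 kept this count at 3. It was 1 without fish 2, without fish 4, without scaling factors or within fish 3 and 4, and 2 in every other alternative. By edgeR's likelihood ratio test 1 factor, *tfap2a*, passed an FDR under 0.01 (0.00731), and by DESeq2 0 did, with 2 at an FDR under 0.05. The populations did not overlap for 2 of the 5 (*pax6a* and *prox1a*), compared with 8.97% of tested genes. The log2 ratio was below 0 in all 4 fish for the same pair, compared with 18.9%. The median log2 fold change was -1.19 over the 5 factors and -0.02 over all tested genes. No test was made of the list, and with 5 genes nothing particular to it is read from these counts. Since the libraries hold RNA of many cells, fewer cells of a type and less RNA per cell cannot be told apart.

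**Figure D2:**
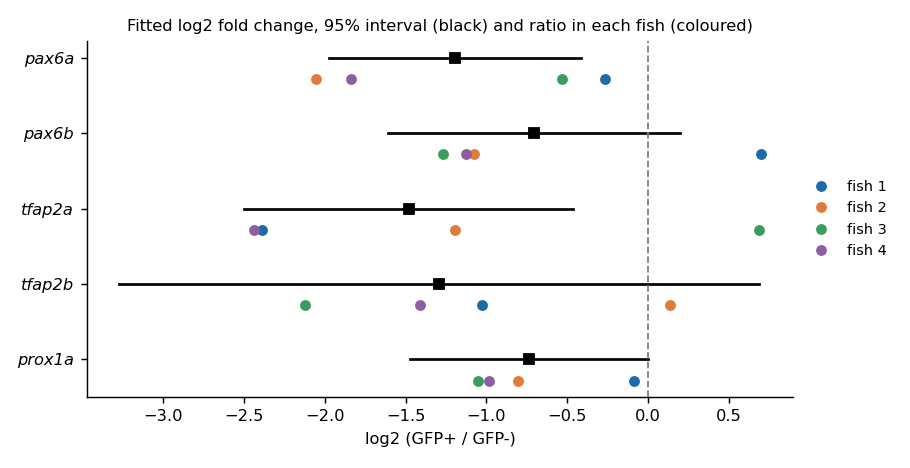
Log2 ratio of GFP+ to GFP- (horizontal axis) for the 5 tested factors, with the fitted value as a black square, its 95% interval as a black line and the ratio in each fish as a coloured point. The intervals of *pax6a* and *tfap2a* stay below 0, that of *prox1a* ends at 0, and those of *pax6b* and *tfap2b* cross it.

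The fish differed in how far each factor moved. The 20 ratios of 5 factors in 4 fish are not independent, since the factors share the fish. Of these ratios, 17 were below 0. The exceptions were *pax6b* in fish 1 (0.70), *tfap2a* in fish 3 (0.69) and *tfap2b* in fish 2 (0.13), a different fish for each gene. The per-fish ratio of *tfap2a* spanned 3.13 log2 units, that of *tfap2b* 2.26, that of *pax6b* 1.97, that of *pax6a* 1.79 and that of *prox1a* 0.97. The median ratio over the 5 factors was closest to 0 in fish 1, at -0.26, and was -1.08, -1.05 and -1.41 in fish 2, 3 and 4. The share of single ratios below 0 over all tested genes was not computed, but the median ratio of all genes in a fish lay between -0.10 and 0.00.

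Fish 3 and 4 share a label suffix (_2) that could mark a batch, so the difference was also fitted within each label group. For *pax6a* the log2 fold change was -1.17 (SE 0.52) within fish 1 and 2 and -1.22 (SE 0.52) within fish 3 and 4. For *pax6b* the values were -0.19 and -1.24, for *tfap2a* -1.85 and -0.996, for *tfap2b* -0.52 and -2.61, and for *prox1a* -0.45 and -1.04. All 10 values were negative, but none had an FDR under 0.05 within a label group. The label groups also differed in the rod transcripts of their GFP- libraries. These were summed at 2987 and 4522 CPM in fish 1 and 2 and at 14816 and 12365 CPM in fish 3 and 4. The part of rod transcripts, or of sex, in the label group values was not tested. The test of the difference between label groups, in edgeR's quasi-likelihood fit, gave an FDR of 0.939 or more for each of the 5 factors. Across all tested genes, 21 differed between the label groups at an FDR under 0.05.

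*onecut1* (ENSDARG00000007982), a cut-homeobox factor of horizontal cells in mouse, had 9 reads in the GFP- library of fish 1, 1 read in the GFP+ library of the same fish and 0 in the other 6 libraries. *lhx1a* (ENSDARG00000014018), a LIM homeobox factor that places horizontal cells in mouse, had 15 reads in the GFP- library of fish 2, 2 in that of fish 1 and 1 in the GFP+ library of fish 2. The remaining 5 libraries had 0. For each of these horizontal cell factors, the reads came mostly from 1 GFP- library.

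*atoh7* (ENSDARG00000069552), the proneural factor of the ganglion cell lineage, had 1, 1, 0 and 0 reads in the GFP+ libraries of fish 1 to 4 and 0, 1, 0 and 3 in the GFP- libraries. No library exceeded 3 counts, and no difference was detectable at this depth. *pou4f2* (ENSDARG00000069737), a POU homeobox factor of differentiating ganglion cells in mouse, had 4 reads in the GFP+ library of fish 3 and 0 in the other GFP+ libraries. Its GFP- libraries had 4, 1, 0 and 2 reads in fish 1 to 4. The 4 untested factors had 45 reads in all, compared with 87 for *tfap2b*, the tested factor with the fewest. Without a filter on low counts their unadjusted p-values in edgeR's quasi-likelihood fit lay between 0.209 and 0.858, and none was called.

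**Figure D3:**
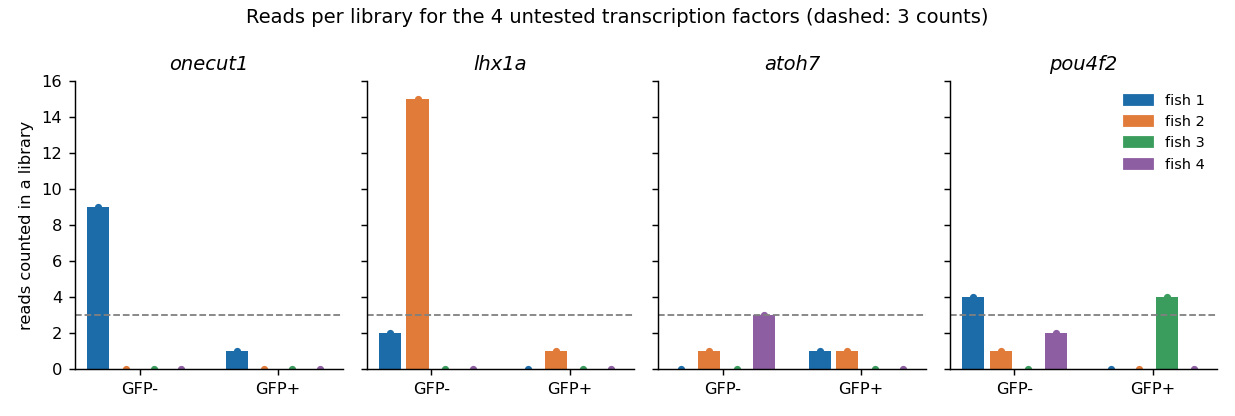
Reads counted per library (vertical axis, linear, starting at 0) for *onecut1*, *lhx1a*, *atoh7* and *pou4f2*, with 1 bar per fish in each population and a dot at each value so that libraries at 0 can be seen. The bars above the dashed line at 3 counts are 1 GFP- library each for *onecut1* (9 reads), *lhx1a* (15 reads) and *pou4f2* (4 reads), and 1 GFP+ library for *pou4f2* (4 reads).

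Close relatives of the named factors were read in the same fit; they belong to a list of related transcription factors, and were singled out by family after their values were seen. In the AP-2 family, *tfap2c* had 14 reads in GFP+ and 77 in GFP- libraries and a fitted log2 fold change of -2.65 (SE 0.94, FDR = 0.0623 by edgeR's quasi-likelihood test). *tfap2e* had 15 and 27 reads and did not pass the test either (-1.90, SE 1.37, FDR = 0.417). *TFAP2D* had 6 reads, all in the GFP+ library of fish 2. Of the 5 AP-2 genes, 4 had more reads in GFP- than in GFP+ libraries, including *tfap2a* and *tfap2b*. In fish 1 *tfap2e* went the other way, with 12 GFP+ and 5 GFP- reads. These reads are not scaled to library size, and the family was singled out after its values were seen. No result for the family is read from this count. The paralog of *prox1a*, *prox1b*, had means of 9.67 CPM in GFP+ and 8.11 CPM in GFP- libraries (log2 fold change 0.13, SE 0.67, FDR = 0.939 by edgeR's quasi-likelihood test). In fish 1 to 4 its level was 8.15, 18.0, 2.13 and 10.5 CPM in GFP+ and 8.71, 13.0, 6.22 and 4.50 CPM in GFP- libraries. With this SE, no difference cannot be told from one as wide as that of *prox1a* (-0.74), which did not pass the test either. Whether the 2 paralogs differ from each other was not tested.

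Among the Onecut genes, *ONECUT2* had 0, 2, 0 and 3 reads in the GFP+ libraries of fish 1 to 4 and 17, 14, 0 and 4 in the GFP- libraries. Its log2 fold change of -2.66 did not pass the test (SE 1.46, FDR = 0.262 by edgeR's quasi-likelihood test). *onecutl* had 51 and 83 reads in the populations (log2 fold change -0.98, SE 0.66, FDR = 0.380 by edgeR's quasi-likelihood test). *onecut3a* had 0 reads in GFP+ libraries and 11 in GFP- libraries, of which 10 were in fish 1, the fish that also held all 10 *onecut1* reads. For the LIM factors, *lhx1b* and *lhx5* had 0 reads in every library, and *isl1*, which ganglion, amacrine and bipolar cells use, was at 15.5 and 22.5 CPM in GFP+ and GFP- libraries (log2 fold change -0.67, SE 0.48, FDR = 0.409 by edgeR's quasi-likelihood test). *lhx4* was lower at an FDR under 0.05, compared with 9.57% of all tested genes (-1.42, SE 0.47, FDR = 0.0447 by edgeR's quasi-likelihood test). *lhx9*, *LHX3* and *lhx2b* did not pass this test (-1.55, -1.62 and -0.30, FDR = 0.335, 0.386 and 0.836). Of the Pax genes in the list, *pax10* had 11 GFP+ and 52 GFP- reads and *pax2a* 28 and 16, and neither was tested. The other Pou4 genes were as sparse as *pou4f2*, with 3 and 10 reads for *POU4F1* and 2 and 7 for *POU4F3*.

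Over the whole list of 74 other transcription factors named for these cells and their precursors, 54 IDs were matched. The list is not exclusive to them, as *isl1* was also counted in the bipolar list. Of the 54 IDs, 31 were tested. Of these, 27 had a negative log2 fold change, compared with 51% of all tested genes, with a median of -1.42. At an FDR under 0.05, 6 were lower, compared with 9.57% of all tested genes, and 0 were higher, compared with 5.6%. Every GFP+ library lay below every GFP- library for 9 of the 31, compared with 8.97% of tested genes. At an FDR under 0.01, 2 were lower, compared with 5.68% of all tested genes, and 0 were higher, compared with 3.13%. At this stricter threshold, with 2 calls among 31, the share called lower was near that of all genes. The 2 that were lower were *six3b*, a homeobox factor of the early eye field (log2 fold change -1.44, SE 0.29, FDR = 0.00108 by edgeR's quasi-likelihood test), and *tbx2a*, a T-box factor of the dorsal retina (-1.35, SE 0.33, FDR = 0.00578). *six3b* was at 29.3, 50.1, 53.3 and 30.4 CPM in GFP+ and at 87.7, 109.0, 130.7 and 105.5 CPM in GFP- libraries of fish 1 to 4, with no overlap. *tbx2a* was at 25.9 ± 4.80 CPM in GFP+ and 65.7 ± 11.5 CPM in GFP- libraries (SD, n = 4 each), also with no overlap. The summed level of the list was 262 to 367 CPM in GFP+ and 613 to 790 CPM in GFP- libraries. The count of 2 became 4 without a filter on low counts and 6 with the likelihood ratio test. It became 0 without scaling factors, without fish 4, within fish 3 and 4 or when the pairing by fish was left out. It was 1 without fish 1, without fish 2 or within fish 1 and 2.

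Other transcripts that mark the same cells, which do not encode transcription factors, were read from the same fit. Of 12 tested amacrine and horizontal cell transcripts, all had a negative log2 fold change, compared with 51% of all tested genes, and the median was -1.22. Here too a gene could pass the filter on reads through 1 population alone. Every GFP+ library lay below every GFP- library for 5 of the 12, compared with 8.97% of tested genes. At an FDR under 0.05, 5 were lower, compared with 9.57% of all tested genes. At an FDR under 0.01, 4 were lower, compared with 5.68% of all tested genes. These were the GABA transporter *slc6a1a* (-2.04, SE 0.36, FDR = 0.000314 by edgeR's quasi-likelihood test), the neuronal RNA-binding protein gene *elavl3* (-1.30), and *gad2* and *gad1b*, which encode the enzymes that make GABA (-1.15 and -1.17). Without fish 1, 2 or 4, without scaling factors, without the pairing by fish or within either label group, 1 of the 12 passed. The horizontal cell connexin transcripts *cx52.7* and *CX55.5* had log2 fold changes of -0.18 (SE 1.00) and -0.17 (SE 0.75) and did not pass the test (FDR = 0.943 and 0.925). They had 41 GFP+ and 41 GFP- reads (*cx52.7*) and 59 and 52 (*CX55.5*). With these errors, no difference cannot be told from a wide one. Of the 5 transcripts too sparse to test, *penka*, which encodes a proenkephalin, and *th*, which encodes tyrosine hydroxylase, had more reads in GFP+ than in GFP- libraries (20 and 8 for *penka*, 25 and 17 for *th*). The list was summed at 211 to 399 CPM in GFP+ and at 581 to 747 CPM in GFP- libraries. In GFP+ libraries, 1 to 4 of its 17 IDs had 0 reads.

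Of 14 tested ganglion cell transcripts, 13 had a negative log2 fold change, compared with 51% of all tested genes, and the median was -1.31. The exception was *chrnb3b*, an acetylcholine receptor subunit gene (0.72, SE 0.98, FDR = 0.713). As in the lists above, a gene could pass the filter on reads through 1 population alone. Every GFP+ library lay below every GFP- library for 2 of the 14, compared with 8.97% of tested genes. At an FDR under 0.05, 5 were lower, compared with 9.57% of all tested genes. At an FDR under 0.01, 2 were lower, compared with 5.68% of all tested genes. The 2 at an FDR under 0.01 were *islr2*, a leucine-rich repeat protein gene (-1.99, SE 0.35, FDR = 0.000286 by edgeR's quasi-likelihood test), and *sncgb*, which encodes a synuclein (-1.14, SE 0.27, FDR = 0.00513). The list was summed at 243 to 344 CPM in GFP+ and at 458 to 913 CPM in GFP- libraries, and 3 to 6 of its 20 IDs had 0 reads in a GFP+ library. Without fish 1, 2 or 4, or without scaling factors, 1 of the 14 passed. Within fish 3 and 4, or when the pairing by fish was left out, 0 passed, whereas within fish 1 and 2 the count stayed at 2.

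Beside these values, the median log2 fold change was -0.93 over 11 bipolar and -0.93 over 11 Müller glia transcripts. It was -2.53 over 12 cone transcripts and -4.67 over 11 microglia and macrophage transcripts. The median of the 5 tested factors (-1.19) lay close to those of the amacrine and horizontal cell list (-1.22) and of the ganglion cell list (-1.31). The bipolar and Müller glia medians, and those over 4 pigment epithelium transcripts (-0.97) and 31 other transcription factors (-1.42), were also near it. The closeness is not read as particular to any cell type. These medians are descriptions, since differences between lists were not tested. Transcripts of other cell types were also counted in GFP+ libraries, with cone transcripts summed at 5455 to 8319 CPM there and at 22063 to 47088 CPM in GFP- libraries. Their part in the GFP+ reads of the named factors was not tested.

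**Figure D4:**
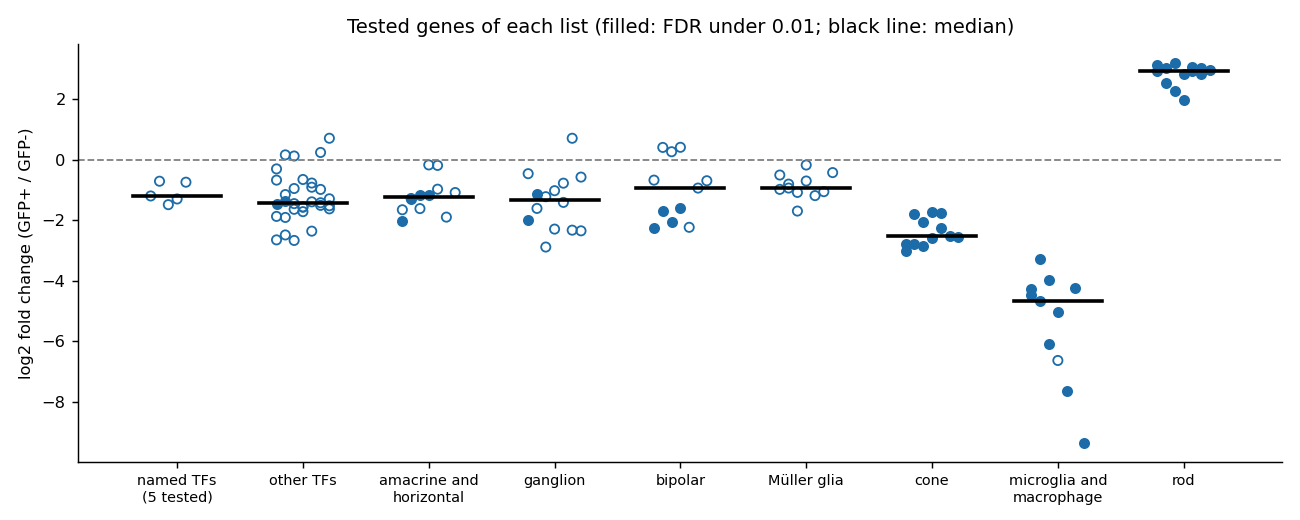
Log2 fold change of GFP+ over GFP- (vertical axis) for each tested gene of the named transcription factors (TFs) and of 8 other lists (horizontal axis), filled where the FDR is under 0.01, with the median as a black line. The named factors lie between -1.48 and -0.71, within the range of the amacrine and horizontal cell list and above all tested cone transcripts, whose median is -2.53.

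To describe which genes had profiles most like each factor, log2 CPM was centred on the mean of each gene over the 8 libraries. Likeness was the root mean square difference between 2 such profiles. The nearest 3 genes to *pax6a* were *slain1a* (0.21 log2 units), *SSBP4 (2 of 2)* (0.22) and *BSN (2 of 3)* (0.23), of which *BSN* is named for the presynaptic protein Bassoon. Those nearest to *pax6b* were *pacsin1b* (0.15), *slc35f6* (0.16) and *CABZ01038521.1* (0.19). *prox1a* was nearest to *rlbp1a* (0.16), which encodes a retinoid-binding protein of Müller glia, *CASKIN1 (2 of 2)* (0.19) and *atp2b1a* (0.21). *tfap2a* had no gene as close, with *decr1* (0.30), *ap1s2* (0.36) and *itprip* (0.38) as its nearest. For *tfap2b* the nearest were *CABZ01088933.1* (0.23), *si:ch73-112n4.1* (0.24) and *nme2b.2* (0.27).

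Among the factors themselves, *pax6b* and *prox1a* were the most alike, 0.34 apart, followed by *pax6a* and *prox1a* at 0.46 and *pax6a* and *pax6b* at 0.55. The AP-2 pair, *tfap2a* and *tfap2b*, was 0.99 apart, and *tfap2a* was 0.86 or more from every other factor. With 8 libraries from 4 fish, these distances are descriptions and carry no test.

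**Figure D5:**
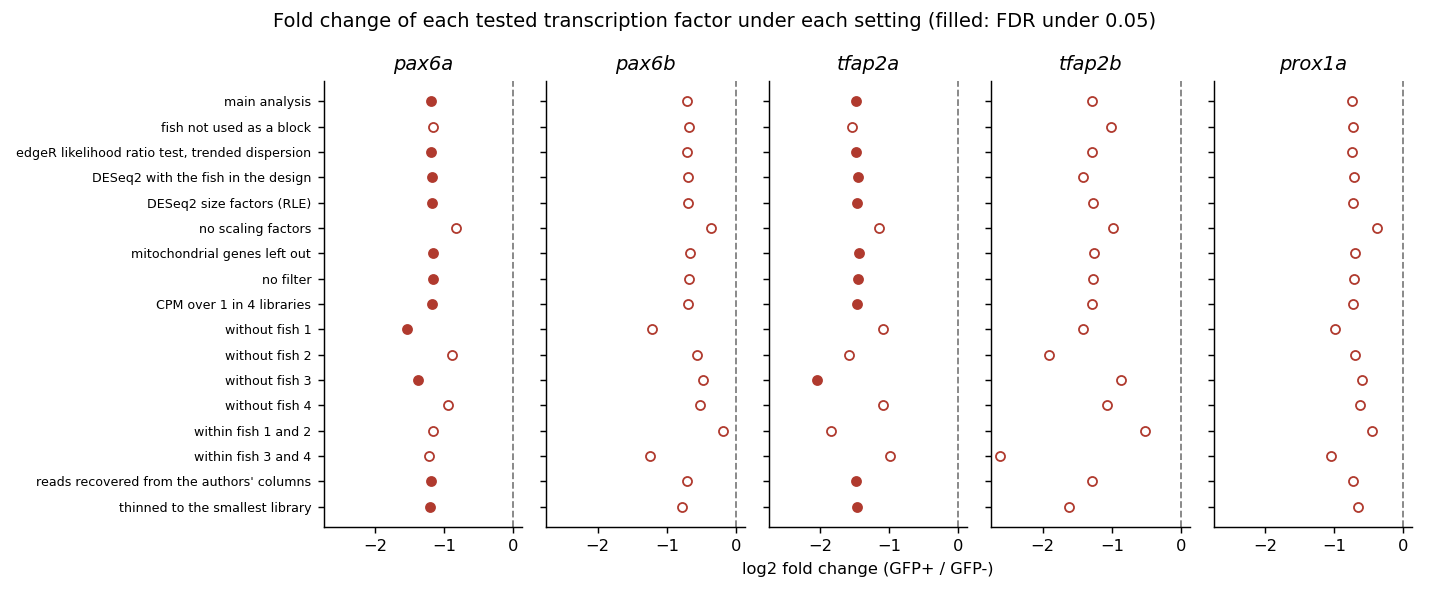
Log2 fold change of GFP+ over GFP- (horizontal axes) of each tested factor under the main analysis and 16 alternatives (rows), filled where the FDR is under 0.05. All values are below 0, and the filled points are those of *pax6a* in 11 and *tfap2a* in 10 of the 17 settings.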

How the data were processed

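RNA-seq counts of 8 libraries were used, 1 GFP+ and 1 GFP- library from each of 4 fish. The deposited values are whole-number counts per gene, made by the authors with HTSeq-count after trimming (Sickle), merging of read pairs (FLASH), alignment by BWA to Zv9 with the Ensembl annotation, and sorting (SAMtools); versions and strand setting are not given in the sources used here. HTSeq's counters were left out. They took 40.5% to 55.3% of a GFP+ library and 34.4% to 41.0% of a GFP- library, with the higher share in the GFP+ library of each fish. The part of this difference in the fold changes was not tested. A second table deposited by the authors holds their own comparison (log2 fold changes, a likelihood ratio score and p-values, not used) and a normalized signal for each library. Whole reads were recovered for 100% of that signal (relative tolerance 1e-06) and 100% equalled the deposited counts; the same test on them called 387 genes higher and 685 lower.

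The main test used edgeR 4.0.16 in R 4.3.3 (filterByExpr, TMM, quasi-likelihood F test, fish as a block, Benjamini-Hochberg adjustment over 12564 genes), with DESeq2 1.42.0 as an alternative, and plotted with matplotlib 3.10.9. Libraries were paired because both came from the retinas of 1 fish; deviations from population means correlated at 0.323, 0.292, 0.333 and 0.214 within fish 1 to 4, and at 0.205 or less between fish. Symbols came from the authors' table for 13325 IDs and from a gene name table, without regard to capitals, for 10867. Thresholds were an FDR of 0.01, after the paper, and 0.05. Per-fish log2 ratios use a prior count of 2. The fits were also run on simulated data, with changes planted only in genes above the median count. That run does not bear on the power for sparse genes such as *tfap2b*. The members and lists were chosen with earlier results of these data known. Genes named are all members, up to 5 of each list past an FDR of 0.01, the 3 nearest profiles of each tested member, and relatives as stated. Outside these rules, *cx52.7*, *CX55.5*, *chrnb3b*, *penka*, *th*, *foxn4*, *myt1a*, *satb1a*, *sox2*, *nr4a2a* and *tbr1a* are also named, which did not pass this threshold or were not tested. Alternatives changed the pairing, test, scaling, filter, depth and fish. Transcript lengths and sequences were not used, so levels are not compared between genes.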

Additional observations from a re-analysis of the deposited data

Results flagged for a closer look

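In the GFP+ libraries, *prox1a* stood at 37.5 CPM in fish 1 and between 22.0 and 23.6 CPM in fish 2 to 4. The gap from fish 1 to the nearest library was 0.896 of the whole range of the 4 libraries, above Dixon's 95% critical value for 4 samples. It was the only 1 of 10 groups of libraries (5 factors in 2 populations) to stand out so. Chance alone gives about 1 in 20 for each group, so 1 among 10 groups is not unusual.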

How the results depend on the processing

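All 5 tested factors kept a negative log2 fold change in all 16 alternatives. With the pairing by fish left out (no replicate block), 45 genes were higher and 142 lower at an FDR under 0.01, compared with 393 and 714, and 0 of the 5 factors were lower at an FDR under 0.05, compared with 2. Without scaling factors 568 were higher and 372 lower; this moved the median of all genes from -0.02 to 0.32 and that of the factors from -1.19 to -0.83, and 0 factors passed an FDR under 0.05. With the likelihood ratio test 1112 were lower, and 1 factor passed an FDR under 0.01. Within fish 1 and 2, 394 genes were lower and 0 factors had an FDR under 0.05; within fish 3 and 4, 188 were higher, 343 lower and again 0 factors passed. With each fish left out in turn, 180 to 352 genes were higher and 329 to 569 lower, 0 to 1 factors were lower at an FDR under 0.01 (*tfap2a*, without fish 3) and 0 to 2 at an FDR under 0.05. The cause of these changes was not tested. Over the alternatives, the FDR lay between 0.0108 and 0.248 for *pax6a* and between 0.00211 and 0.479 for *tfap2a*, and did not go below 0.139 for *pax6b*, 0.181 for *prox1a* or 0.312 for *tfap2b*. Thinning the libraries to 1722055 reads, chosen after seeing the data, changed none of these calls. The 4 untested factors and *tfap2b* had the fewest reads, so little can be read from them, and no deeper libraries were fitted.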
